A study of Mus musculus with 24 samples.

Results

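The genes described here are a module of 41 cell cycle genes, read in whole adrenal glands of adult mice as a measure of renewal of the gland. They were taken by symbol from a list drawn up with earlier results of these data known: 10 genes of DNA replication, called S-phase genes here, and 31 genes of the mitotic spindle, kinetochore, cytokinesis and mitotic control, called mitotic genes. Of the 41, 39 had a probe set of their own (all 10 S-phase genes and 29 mitotic genes) among 21957 genes in all. No probe set carried the symbol of Ccnb1, and that of Ncapg also names a second gene, so both were left out. Each gene was represented by its probe set with the highest mean signal.

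The series set glands lacking Prkar1a, which encodes a regulatory subunit of protein kinase A, beside controls in females, intact males and gonadectomised (GDX) males, with 4 arrays in each of 6 groups. All mice were 7 months old and of a mixed sv129-C57Bl/6 background, and GDX males had been without testes for the last 2 months. In all 3 KO groups the genotype was Prkar1afl/fl;cre/+;mTmG/mTmG. WT females were Prkar1afl/+;cre/+;mTmG/mTmG, and WT intact males Prkar1afl/fl;+/+;mTmG/mTmG. The WT GDX group mixed genotypes: array 1 was Prkar1a+/+;+/+;mTmG/mTmG, array 2 Prkar1a+/+;cre/+;mTmG/+, array 3 Prkar1a+/+;cre/+;mTmG/mTmG and array 4 Prkar1afl/+;cre/+;mTmG/mTmG. The Cre is driven from Cyp11b2, which encodes aldosterone synthase and is used in the outer cortical zone, the zona glomerulosa. The Cre reporter alleles (mTmG) are thus shared by every group, while Cre itself is carried by WT females and by 3 of the 4 WT GDX males but by no WT intact male.

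The adrenal cortex renews itself slowly: progenitor cells under the capsule and in the zona glomerulosa divide, and their daughters move inward as they change zone. A dividing cell first copies its DNA, for which the Mcm2 to Mcm7 helicase, the sliding clamp Pcna and the nucleotide enzymes Rrm2 and Tyms are needed, and then separates the copies on a spindle built and watched over by kinesins, Aurora and Polo kinases, and the checkpoint kinases Bub1, Bub1b and Ttk. Genes of the first step are classical targets of E2F factors, and genes of the second are held silent in resting cells and switched on late in the cycle through complexes that bind the cell cycle genes homology region (CHR), often beside CCAAT boxes bound by NF-Y.

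Promoter sequences are shown for 5 genes whose values the results turn on or that mark each class, since the classes differ in these motifs. The windows are from RefSeq on GRCm38.p6, 250 bases before to 50 bases after the annotated start, for 34 of the 41 genes. The letters searched on both strands were TTTGAA for the CHR, CCAAT for the CCAAT box, and TTTCCCGC, TTTCGCGC, TTTGCCGC and TTTGGCGC for E2F. The last 120 bases before the start and the first 50 after it are printed 5′ to 3′ along each gene's strand, with every match in capitals. Ccnb2 lies at chr9:70421505-70421674 on the minus strand, Prc1 at chr7:80294331-80294500 on the plus strand, Ttk at chr9:83834569-83834738 on the plus strand, Mcm6 at chr1:128359656-128359825 on the minus strand, and Mcm7 at chr5:138171834-138172003 on the minus strand.
Ccnb2: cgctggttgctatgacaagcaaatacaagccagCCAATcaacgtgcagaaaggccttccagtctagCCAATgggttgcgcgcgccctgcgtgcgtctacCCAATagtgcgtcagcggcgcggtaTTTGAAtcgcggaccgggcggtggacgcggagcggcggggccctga
Prc1: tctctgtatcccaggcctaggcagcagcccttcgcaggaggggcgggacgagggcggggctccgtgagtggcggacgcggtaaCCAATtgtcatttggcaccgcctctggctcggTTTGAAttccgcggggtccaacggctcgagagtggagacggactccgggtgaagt
Ttk: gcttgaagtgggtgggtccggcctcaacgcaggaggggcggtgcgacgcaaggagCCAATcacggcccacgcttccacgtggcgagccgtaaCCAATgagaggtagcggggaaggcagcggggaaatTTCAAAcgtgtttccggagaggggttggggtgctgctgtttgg
Mcm6: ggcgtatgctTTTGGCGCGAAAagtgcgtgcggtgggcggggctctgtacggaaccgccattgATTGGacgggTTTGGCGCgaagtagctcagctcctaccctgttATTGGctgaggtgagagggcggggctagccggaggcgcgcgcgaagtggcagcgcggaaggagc
Mcm7: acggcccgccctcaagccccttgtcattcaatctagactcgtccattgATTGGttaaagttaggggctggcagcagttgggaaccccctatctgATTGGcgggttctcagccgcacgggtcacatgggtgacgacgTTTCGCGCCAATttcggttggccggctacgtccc
In Ttk the CHR letters lie on the other strand and appear as TTCAAA, and both CCAAT boxes of Mcm6 and the first 2 of the 3 in Mcm7 appear as ATTGG. Matches overlap in the capitals at the 5′ part of Mcm6, where E2F letters are found on both strands, and near the start of Mcm7, where E2F letters run into a CCAAT box.

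Over whole windows of 300 bases, CHR letters stood in 17 of 25 mitotic genes (68.0%) and in 1 of 9 S-phase genes (11.1%), against 18.1% of 27025 genes with a promoter. E2F letters stood in 5 of 9 S-phase genes (55.6%) and 2 of 25 mitotic genes (8.0%), against 2.32% of all. CCAAT boxes were found in 7 of 9 S-phase genes (77.8%) and 18 of 25 mitotic genes (72.0%), against 37.9% of all, and the CHR and CCAAT letters stood together in 15 of 25 mitotic genes (60.0%), against 7.12% of all. A match describes the letters of the window and is not a measured binding site.

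All values below are log2 signals. Probe sets differ in brightness, so levels were compared between arrays and never between genes. A gene was tested where its signal was over 5 in at least 4 arrays, which held for 32 of the 39 genes (9 S-phase and 23 mitotic). The 7 genes too dim to test were Cdc6, which loads the helicase, and the mitotic genes Bub1, Birc5, Kif23, Ube2c, Foxm1 and Melk. Only 18 genes (8 S-phase and 10 mitotic) were over 5 in all 24 arrays. Top2a, Cenpf and Nuf2 passed only through GDX groups, so their tests there are not independent of the filter. Genes were called at an adjusted p of 0.05 from limma over all 14411 genes tested. Changes are log2 differences of group means ± standard error.

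As a check of the labels, Prkar1a was read first, and the KO and WT arrays did not overlap in any of the 3 comparisons. Its change was -1.43 ± 0.23 for females (limma, adjusted p 5.83e-05), -0.92 ± 0.23 for males with testes (adjusted p 0.16) and -1.19 ± 0.23 after gonadectomy (adjusted p 0.00477), the last being -1.21 ± 0.25 without KO GDX array 2 (adjusted p 0.0107). Array medians lay between 5.20 and 5.29. The 8 adrenocortical markers had a mean log2 level of 11.77 to 11.99 over the groups and so were bright in a tissue labelled whole adrenal gland, while the lymphocyte markers were dim, with 2 of 7 bright enough to test. KO GDX array 2 stood apart from the other 23 arrays. It was the highest of its group in 29 of 29 mitotic and 10 of 10 S-phase genes, against 26.9% of all genes, and the highest of all 24 arrays in 27 of 29 mitotic genes, against 4.48% of all. Its mean over the 8 capsule and fibroblast markers was 9.02 where the other 3 KO GDX arrays had 7.76 to 8.08, and its mean over the 9 macrophage markers was 8.07 against 7.04 to 7.39. The part of these markers in its cell cycle values was not tested. The main log2 changes in KO GDX males are given with and without this array, while counts over marker lists include it.

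The array means of the 29 mitotic genes placed WT GDX males above WT intact males and above the females of both genotypes. In WT females the 4 arrays had means of 5.09, 5.14, 4.88 and 5.07, and in KO females 5.05, 5.18, 5.21 and 5.22. WT intact males had 5.10, 5.05, 4.99 and 4.91, and KO intact males 4.93, 5.03, 5.16 and 5.34. WT GDX males had 5.58, 5.56, 5.29 and 5.38, and KO GDX males 5.16, 6.11, 5.25 and 5.19. The 4 WT GDX arrays were thus above all WT intact males, WT females and KO females, but KO intact array 4 lay above the lowest of them, and 3 of the 4 KO GDX arrays lay inside the range of the KO intact males.

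As group means ± SD (n = 4), the mitotic genes of females stood at 5.05 ± 0.11 (WT) and 5.17 ± 0.08 (KO), those of intact males at 5.01 ± 0.08 (WT) and 5.11 ± 0.17 (KO), and those of GDX males at 5.45 ± 0.14 (WT) and 5.43 ± 0.46 (KO). Without array 2 the KO GDX mean was 5.20 ± 0.05 (n = 3). The array means of the S-phase genes for WT and KO were 6.34 ± 0.09 and 6.23 ± 0.09 among females, 6.29 ± 0.12 and 6.27 ± 0.11 among intact males, and 6.59 ± 0.17 and 6.46 ± 0.26 after gonadectomy, the last being 6.33 ± 0.05 without array 2. No p is given for these means, since the genes were chosen with results known.

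**Figure D1:**
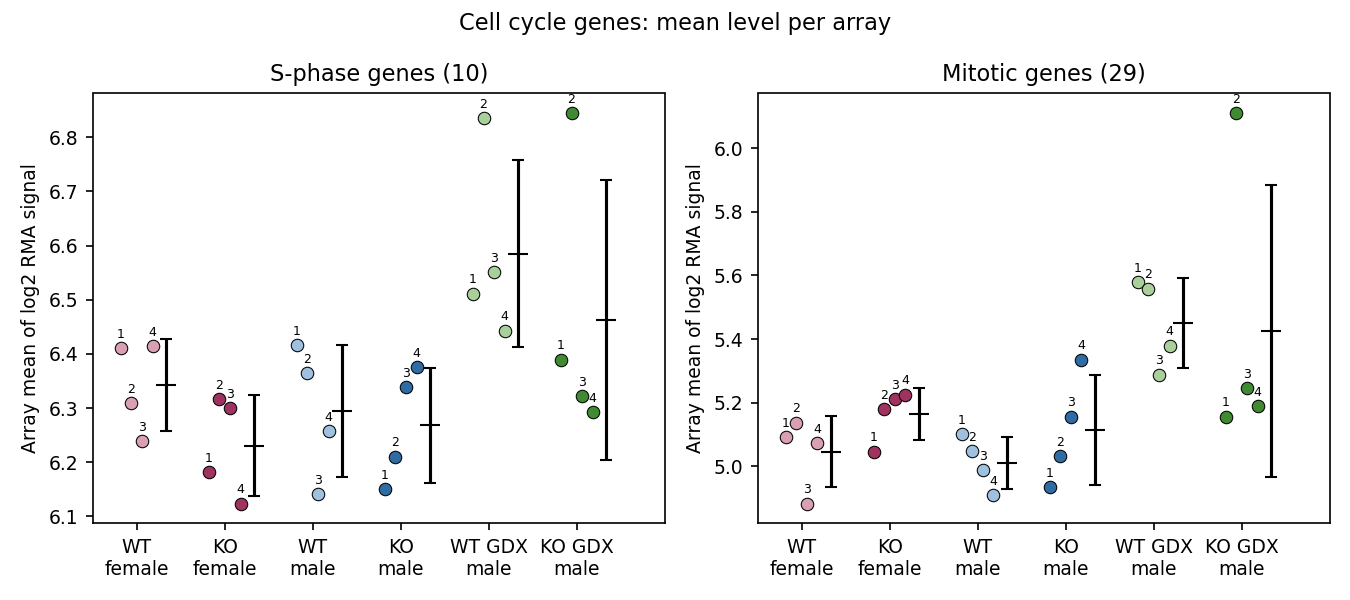
Mean log2 RMA signal of the 10 S-phase genes (left) and the 29 mitotic genes (right) in each array. Numbered points are single arrays, and the bar beside each group is its mean ± SD (n = 4). WT GDX males lie above WT intact males in both panels, and KO GDX array 2 is the highest point of each.

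Gene by gene, the group with the highest median was WT GDX for 24 of 29 mitotic genes and 6 of 10 S-phase genes. No mitotic or S-phase gene had its lowest median in a GDX group. Among mitotic genes the lowest median fell in WT intact males for 12, in WT females for 7, in KO intact males for 7 and in KO females for 3. Among S-phase genes it fell in KO females for 5 of 10.

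**Figure D2:**
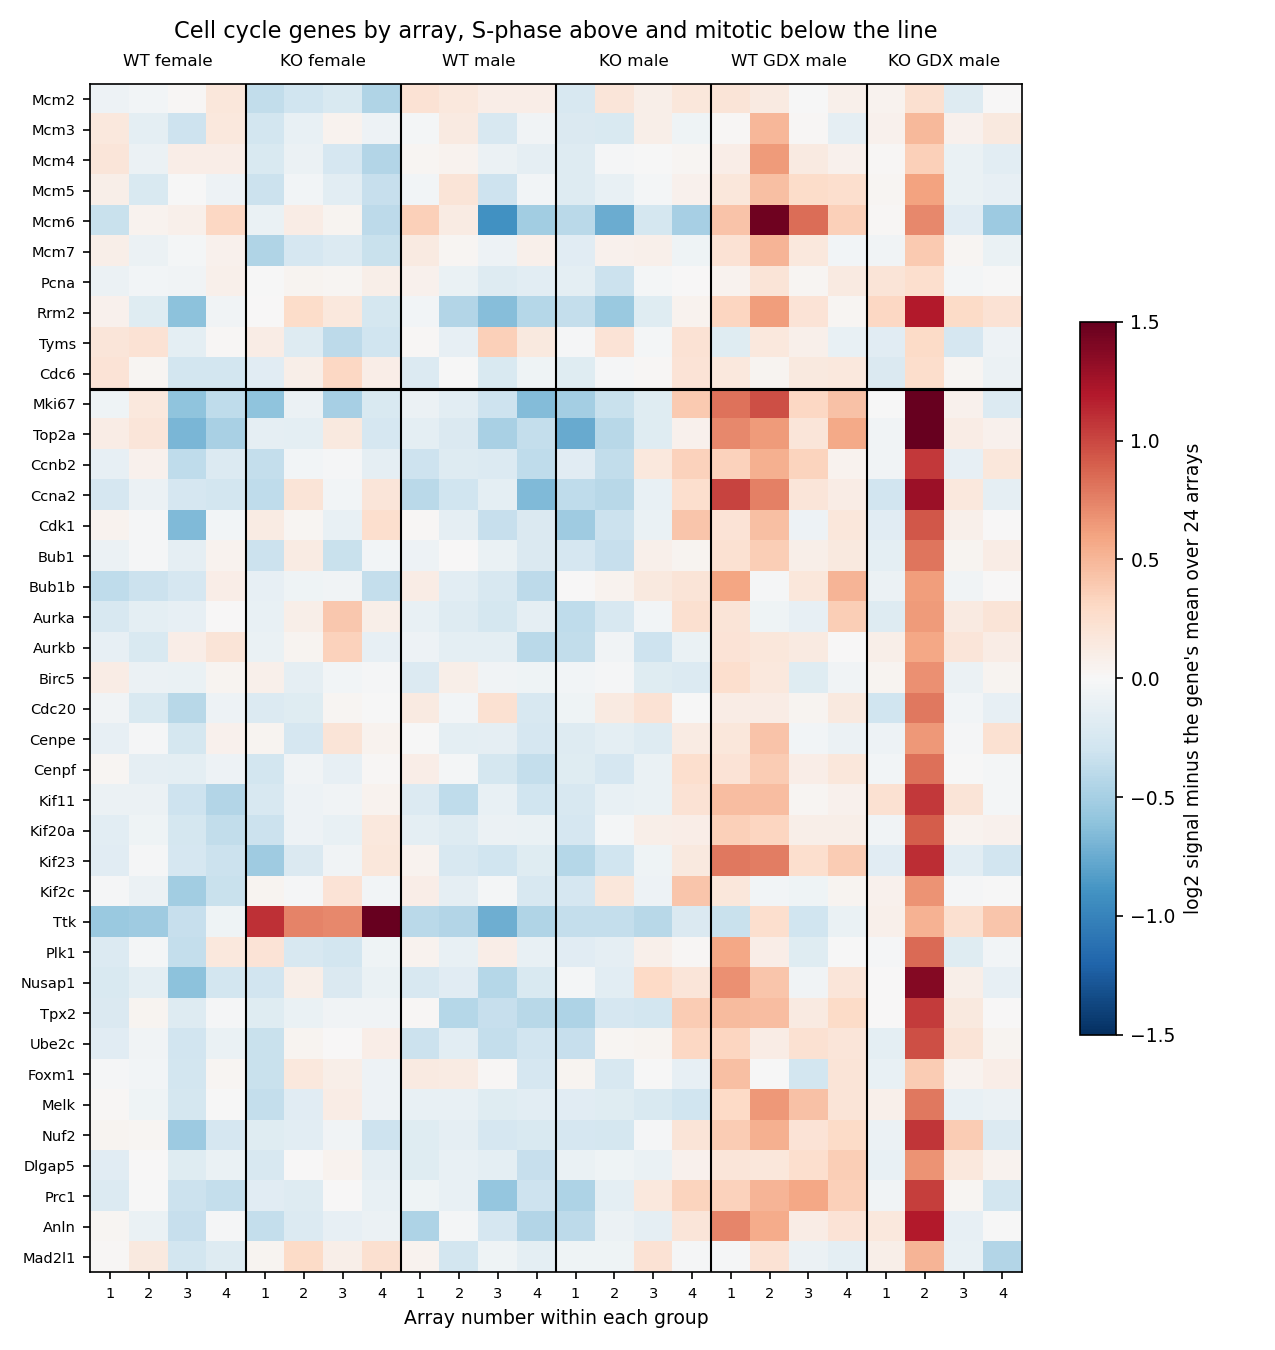
Log2 signal of each of the 39 genes (rows) in each of the 24 arrays (columns) minus that gene's mean over all arrays, with colours held at the ends of the scale. The 4 WT GDX columns are red for most mitotic genes, KO GDX array 2 is red in nearly every row, and the row of Ttk is red in the KO females.

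All 29 measured mitotic genes were higher in GDX than in intact WT males, where 46.2% of all genes were above 0, with a median change of 0.44 against -0.01 over all genes. In 19 of the 29 every GDX array lay above every intact array, against 3.13% of all genes. Of the S-phase genes 8 of 10 were above 0, with a median of 0.22, and 3 did not overlap. The difference of the array means was 0.44 for mitotic and 0.29 for S-phase genes, with no overlap of arrays in either. By limma, 4 genes rose (Ccna2, Prc1, Dlgap5 and Mcm6) and 0 fell, where 1.94% of all tested genes were called higher.

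Ccna2, the cyclin that drives S phase and entry into mitosis, had 6.00, 6.10, 6.25 and 5.74 in WT intact males and 7.41, 7.16, 6.59 and 6.51 in WT GDX males. Every GDX array was above every intact one, with arrays 1 and 2 highest, and the change was 0.89 ± 0.26, or 1.86-fold (limma, adjusted p 0.048). Prc1, which bundles microtubules of the spindle midzone for cytokinesis, had 5.57, 5.52, 5.05 and 5.32 in intact and 5.98, 6.14, 6.21 and 5.99 in GDX males. The GDX arrays lay close together and clear of the intact ones, and the change was 0.71 ± 0.20, or 1.64-fold (adjusted p 0.0464).

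Dlgap5, a spindle protein that stabilises kinetochore fibres, had 4.87, 4.94, 4.90 and 4.71 in intact and 5.23, 5.21, 5.30 and 5.42 in GDX males. The groups did not overlap, and the change was 0.44 ± 0.11, or 1.35-fold (limma, adjusted p 0.0293). Its intact arrays were all under 5, so the size of the change is measured from a dim level. Mcm6, a subunit of the replicative helicase, had 6.37, 6.13, 5.11 and 5.49 in intact and 6.44, 7.47, 6.84 and 6.37 in GDX males. The intact arrays were widely spread and met the lowest GDX array, and the change was 1.01 ± 0.27, or 2.01-fold (adjusted p 0.0354).

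These calls rest on few arrays. That of Mcm6 ended without WT intact array 3 or 4 or WT GDX array 2 or 3, and that of Dlgap5 without WT intact array 3 or 4 or WT GDX array 2, 3 or 4. That of Ccna2 ended without any single array but WT GDX array 4, and that of Prc1 without any but WT intact array 1. Without WT intact array 3 or 4, or without WT GDX array 3, 0 genes of the module were called. Fitted on these 8 arrays alone, limma called 7: Ccnb2, Dlgap5, Mki67, Nuf2, Prc1, Top2a and Tpx2. Of these, Nuf2 and Top2a passed the filter only through GDX arrays, so their calls are not independent of it.

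The common proliferation markers moved the same way without passing the test. Mki67, the gene of the Ki-67 antigen present in all cycling cells, had 6.63, 6.57, 6.41 and 6.07 in intact and 7.53, 7.68, 7.03 and 7.16 in GDX WT males. The groups did not overlap, and the difference was 0.93 ± 0.31, or 1.91-fold (limma, adjusted p 0.0885). Top2a, the topoisomerase that untangles replicated chromosomes, had 4.65, 4.58, 4.31 and 4.44 against 5.52, 5.43, 4.98 and 5.36, a difference of 0.83 ± 0.27 (adjusted p 0.0806) from a dim level and again with no overlap. As Top2a passed the filter only through GDX arrays, this test is not independent of it. Cdk1, the kinase that triggers mitosis, had 5.25, 5.09, 4.88 and 5.02 against 5.44, 5.68, 5.16 and 5.40. Its groups overlapped, with a difference of 0.36 ± 0.21 (adjusted p 0.397).

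Rrm2, the small subunit of the enzyme that makes deoxyribonucleotides, had 5.25, 4.85, 4.64 and 4.85 in intact and 5.61, 5.91, 5.49 and 5.32 in GDX WT males, with no overlap. The difference was 0.69 ± 0.20 (limma, adjusted p 0.0515). Pcna, the clamp that holds the DNA polymerase in place, had 8.62, 8.46, 8.36 and 8.40 against 8.60, 8.75, 8.58 and 8.69. Intact array 1 lay among the GDX arrays, with a difference of 0.20 ± 0.08 (adjusted p 0.165). Tyms, the thymidylate synthase, and Mcm2 were the S-phase genes not above 0, at -0.11 ± 0.13 (adjusted p 0.702) for Tyms and -0.05 for Mcm2.

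**Figure D3:**
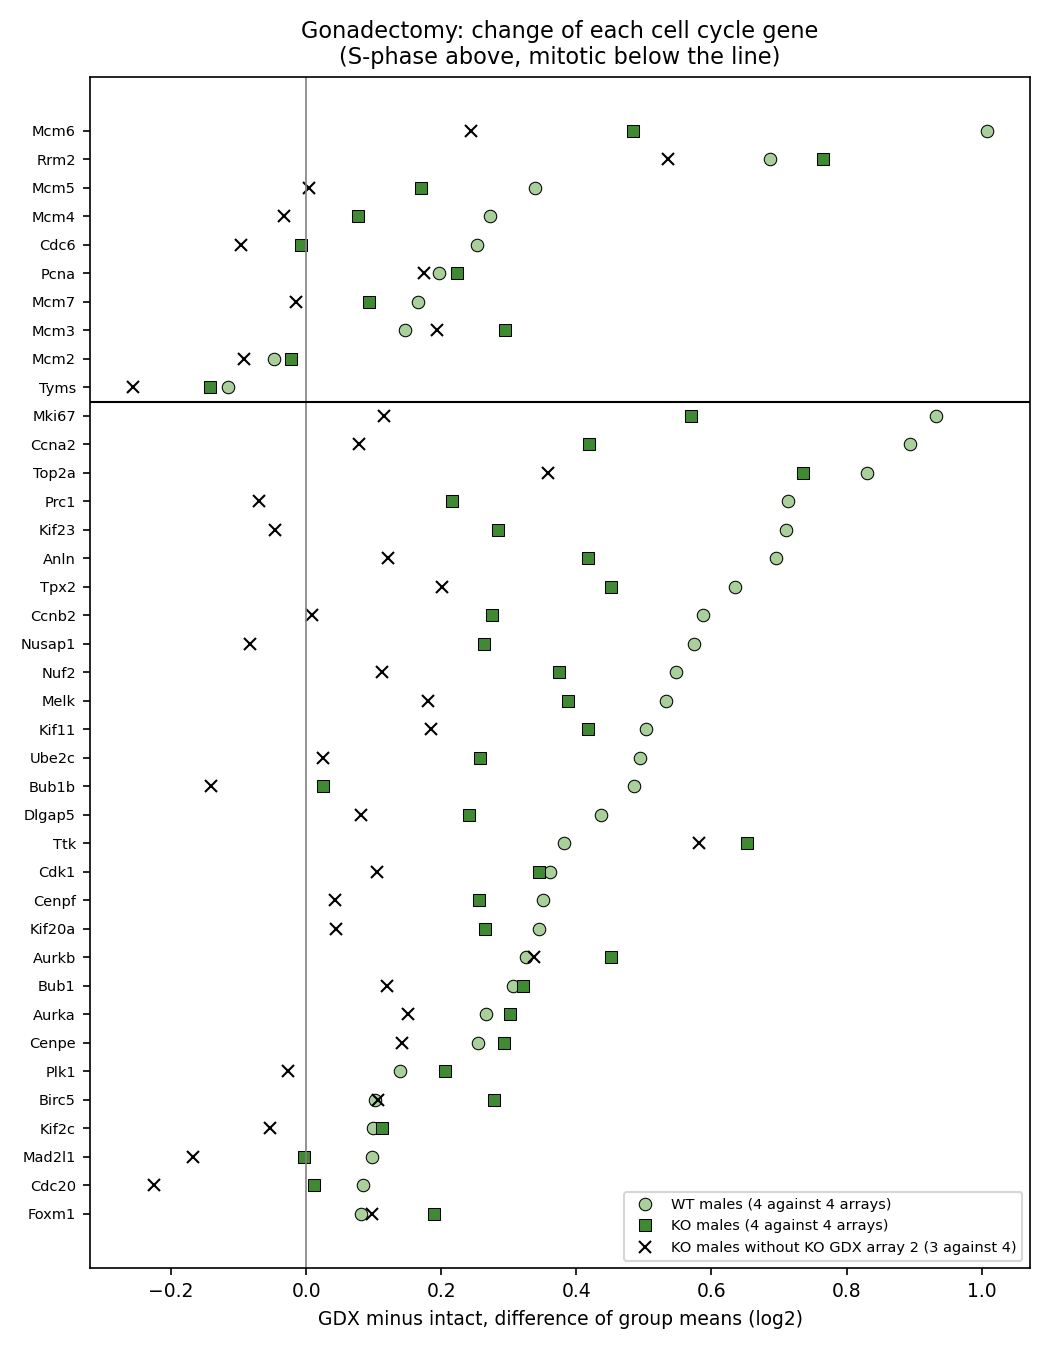
Difference between GDX and intact males for each of the 39 genes in log2 units, in WT males (circles), KO males (squares) and KO males without KO GDX array 2 (crosses). All circles of the mitotic genes lie right of 0, and most crosses lie nearer 0 than the squares.

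The WT groups of this comparison differ in genotype as well as gonads. WT intact males carried floxed Prkar1a without Cre, and the WT GDX males carried the mixed alleles given above, so genotype and gonadectomy cannot be told apart among WT mice. WT GDX arrays 1 to 4, each of its own genotype, had mitotic means of 5.58, 5.56, 5.29 and 5.38, all above the highest WT intact array at 5.10. With 1 array per genotype, the part of the genotype was not tested. All 9 macrophage markers were above 0 in the same comparison, with a median of 0.25 and 0 called by limma, as were all 6 adipocyte markers, with a median of 0.64 and 0 called. Their part in the cell cycle change was not tested. The macrophage means ranged from 7.05 to 7.70 in WT intact and from 7.35 to 7.85 in WT GDX males and overlapped. In RNA of whole glands, more dividing cells and more RNA of these genes per cell cannot be told apart.

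In KO males, where both groups had 1 genotype, gonadectomy gave smaller values. Of the mitotic genes 28 of 29 were above 0, against 49.6% of all genes, with a median of 0.28, but only 3 did not overlap (6.68% of all genes). Without KO GDX array 2 the median was 0.10 and 21 of 29 were above 0, against 48.7% of all genes, and the difference of the array means went from 0.31 to 0.08. The S-phase median was 0.13 with the array and -0.01 without it. By limma 3 genes rose, Ttk, Rrm2 and Aurkb, where 6.85% of all tested genes were called higher, and 0 fell.

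Ttk, the checkpoint kinase Mps1 that delays anaphase until chromosomes are attached, had 5.03, 5.03, 4.97 and 5.17 in KO intact and 5.46, 5.91, 5.63 and 5.80 in KO GDX males. All GDX arrays were clear of the intact ones, and the rise was 0.65 ± 0.16, or 1.57-fold (limma, adjusted p 0.00845). It was 0.58 ± 0.17 without KO GDX array 2 (adjusted p 0.0313), and the call remained without each of the 8 arrays in turn.

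Rrm2 had 4.93, 4.72, 5.11 and 5.33 in KO intact and 5.60, 6.48, 5.58 and 5.50 in KO GDX males. There was no overlap, and the rise was 0.76 ± 0.20, or 1.70-fold (limma, adjusted p 0.0124), while without array 2 it was 0.54 ± 0.17 (adjusted p 0.051). The call was also lost without KO intact array 2. Aurkb, the Aurora kinase that corrects chromosome attachment and works in cytokinesis, had 5.42, 5.73, 5.47 and 5.68 against 5.88, 6.37, 5.97 and 5.89. The groups were apart, and the rise was 0.45 ± 0.12 (adjusted p 0.0147), or 0.34 ± 0.12 without array 2 (adjusted p 0.0629).

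Without KO intact array 4, or without KO GDX array 1, 6 genes were called in this comparison. Mki67 had 6.21, 6.38, 6.54 and 7.11 in KO intact and 6.72, 8.49, 6.79 and 6.52 in KO GDX males. The groups overlapped, array 2 alone lay above KO intact array 4, and the difference of 0.57 ± 0.31 (limma, adjusted p 0.221) became 0.11 ± 0.21 without it. In the same comparison all 7 endothelial markers were below 0, with a median of -0.40. All 6 adipocyte markers were above 0, with a median of 0.86. All 7 medulla markers were below 0 too, with a median of -0.18. By limma 4 of 7 endothelial, 1 of 7 medulla and 1 of 8 capsule and fibroblast markers were called lower. Called higher were 2 of 6 adipocyte and 1 of 8 adrenocortical markers, against 6.85% of all tested genes. The part of these markers in the cell cycle values was not tested.

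The change at gonadectomy in KO males minus that in WT males was tested as an interaction. Its WT part carries the mix of genotypes given above, so it does not isolate the part of the knockout. No gene of the module was called by limma, where 0.0278% of all tested genes were called, and 9 of 29 mitotic genes were above 0, against 51.3% of all genes. The largest negative estimate among those tested was that of Mcm6, at -0.52 ± 0.39 (adjusted p 0.725), followed by Prc1 at -0.50 ± 0.29 (adjusted p 0.633). Without KO GDX array 2 they were -0.76 ± 0.36 (adjusted p 0.525) for Mcm6 and -0.78 ± 0.20 (adjusted p 0.216) for Prc1. The mitotic median of this interaction without that array was -0.32, with 4 of 29 above 0, and still 0 genes were called.

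Between KO and WT glands of GDX males 0 genes of the module were called by limma, where 4.23% of all tested genes were. The mitotic median was -0.01 and 14 of 29 were above 0, against 51.6% of all genes. Without KO GDX array 2 the mitotic median was -0.22, 1 of 29 (Ttk) was above 0, against 50.5% of all genes, and 0 of 10 S-phase genes were. The array means then did not overlap, with differences of -0.25 in both classes. This comparison and the gonadectomy of WT males share the WT GDX arrays, so their values are not independent.

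The largest S-phase difference in GDX males was that of Mcm6, with 6.44, 7.47, 6.84 and 6.37 in WT and 6.03, 6.74, 5.84 and 5.46 in KO glands. KO GDX array 2 lay among the WT arrays, and the difference was -0.77 ± 0.27 (limma, adjusted p 0.114). Without that array it was -1.01 ± 0.27 and passed the threshold (adjusted p 0.0444), as it did with arrays weighted by quality. The largest mitotic difference was that of Ttk, at 0.44 ± 0.16 (adjusted p 0.123), with WT arrays at 5.05, 5.64, 5.09 and 5.28 of which array 2 lay among the KO arrays. Without KO GDX array 2 it was 0.37 ± 0.17 (adjusted p 0.262). Mki67 had -0.22 ± 0.31 (adjusted p 0.749), or -0.68 ± 0.21 without KO GDX array 2.

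In KO females Ttk was called higher and some but not all helicase subunits were called lower than in WT females, with little movement of the other mitotic genes. By limma 1 gene rose, Ttk, and 3 fell, Mcm2, Mcm4 and Mcm7, where 13.9% of all tested genes were called higher and 18.7% lower. So 4 of 32 genes were called, below the background of 32.6%. By class, 1 of 23 tested mitotic genes was called, and 3 of 9 tested S-phase genes were, all of them lower. The mitotic median was 0.06, with 23 of 29 above 0 against 52.6% of all genes, and the S-phase median was -0.14, with 3 of 10 above 0.

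Ttk had 4.83, 4.86, 5.04 and 5.32 in WT females and 6.48, 6.13, 6.11 and 6.94 in KO females. All 4 KO female arrays were also above the highest array of every other group, KO GDX array 2 at 5.91. The rise was 1.40 ± 0.16, or 2.64-fold (limma, adjusted p 1.43e-06), and stayed called without each array in turn (adjusted p up to 1.27e-05). In KO females Mki67 had 6.12, 6.63, 6.22 and 6.49, inside the range of the WT females at 6.66, 6.87, 6.11 and 6.33.

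The 28 other mitotic genes had changes between -0.13 and 0.29 in females, with 0 called and a median of 0.06. Kinases and kinesins of the same phase gave, for example, 0.06 for Bub1b and 0.29 for Kif2c, the microtubule-depolymerising kinesin. With Ttk left out, the difference of the mitotic array means in females was 0.07 in place of 0.12. The genes on either side of Ttk in the annotation were chosen after its value was seen. Elovl4 had 0.10 ± 0.12 (limma, adjusted p 0.545), and Bckdhb fell by 0.38 ± 0.11 (adjusted p 0.00864). A part of the chromosomal region in the value of Ttk was not tested.

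**Figure D4:**
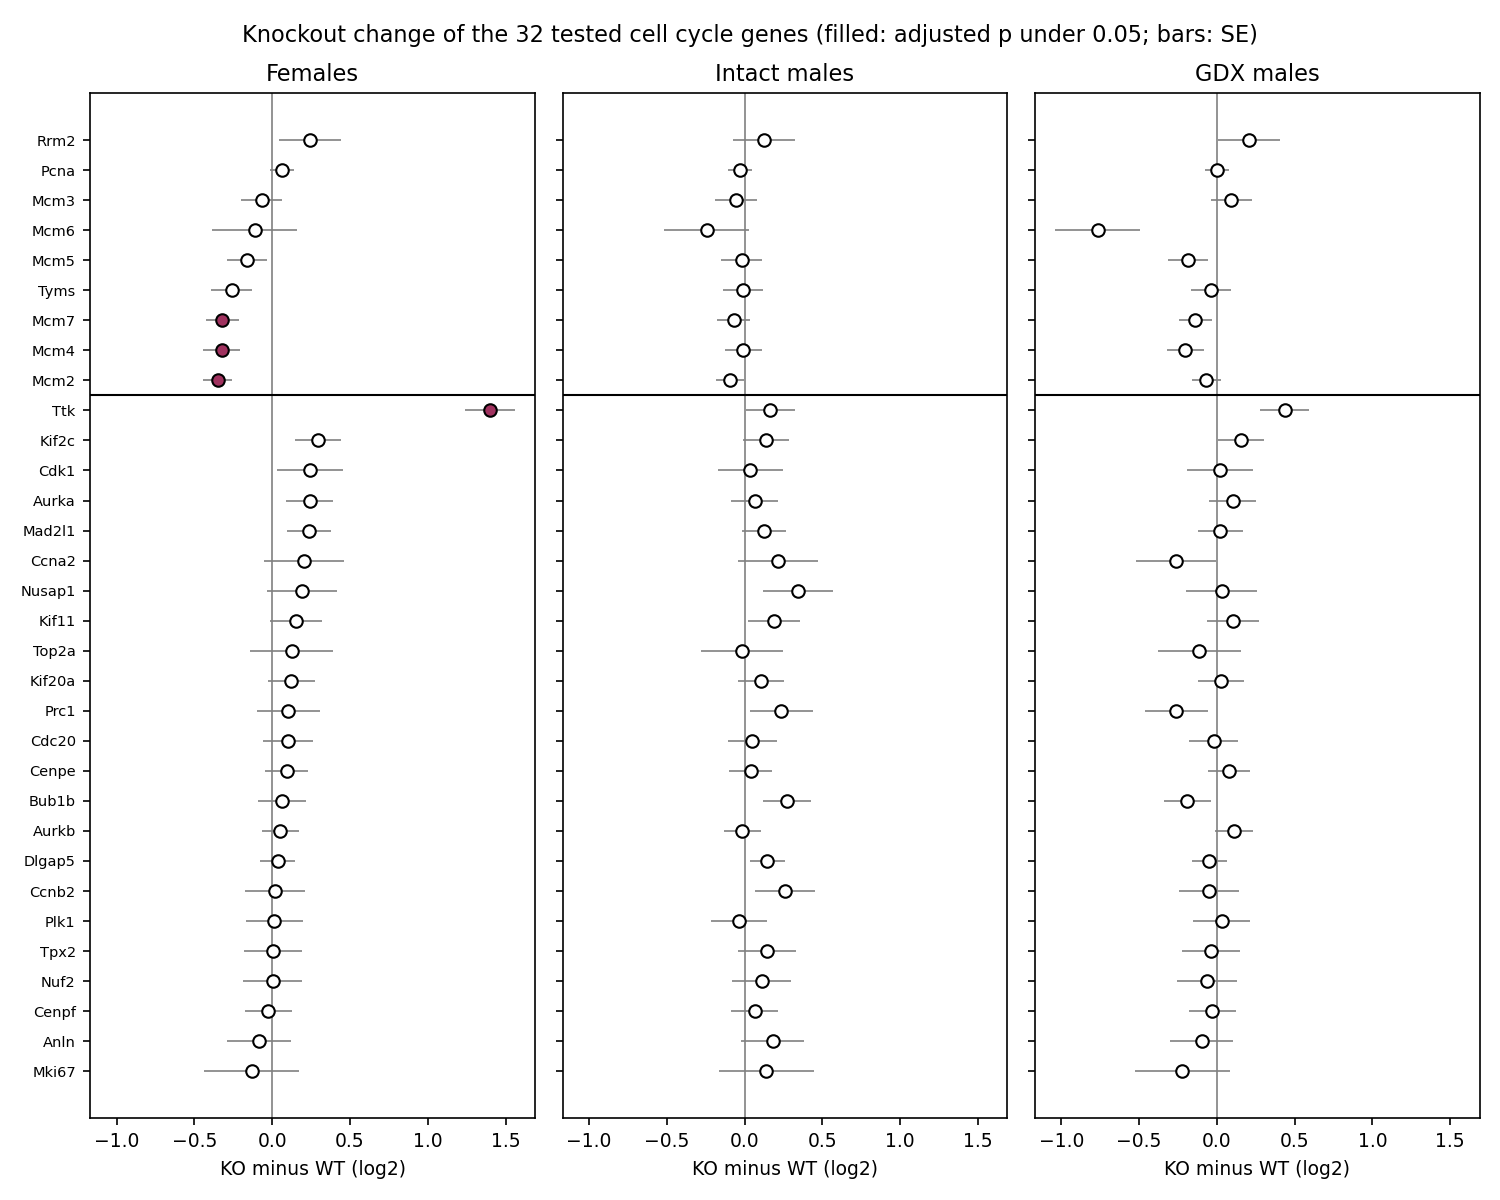
Difference between KO and WT (log2 ± standard error) for the 32 tested genes in females, intact males and GDX males, with filled points at a limma adjusted p under 0.05. Ttk lies at 1.40 in females and apart from all other genes, and 0 points are filled in either group of males.

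**Figure D5:**
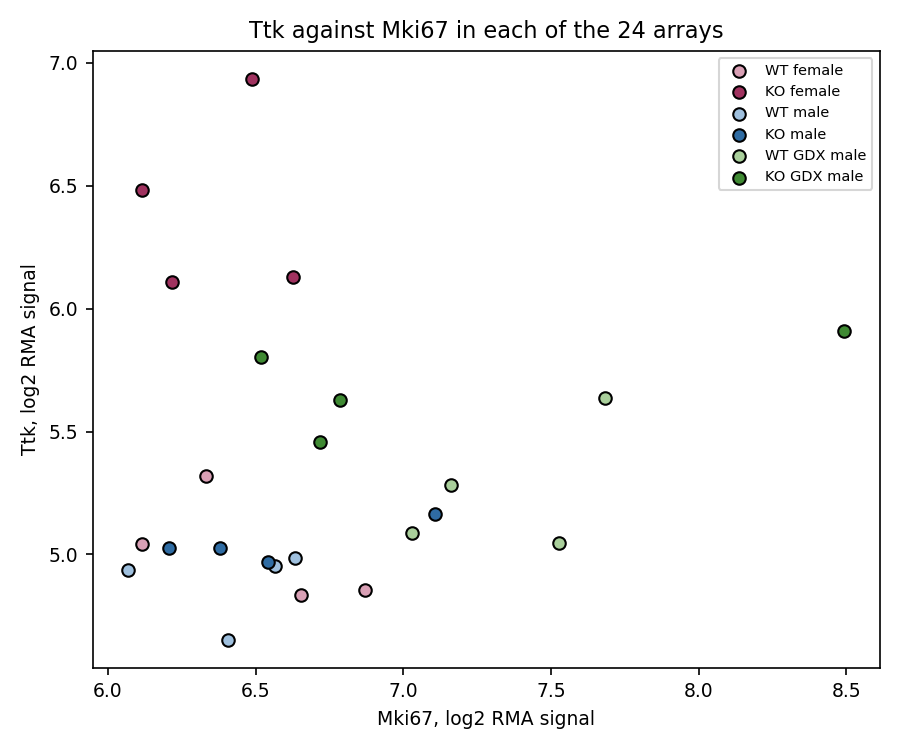
Log2 signal of Ttk against that of Mki67 in each of the 24 arrays, coloured by group. The 4 KO females have the highest Ttk values at Mki67 values within the range of the intact groups, while KO GDX array 2 has the highest Mki67 value, 8.49.

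Mcm2, Mcm4 and Mcm7 are subunits of one ring, the Mcm2 to Mcm7 helicase. Mcm2 had 6.91, 6.95, 7.01 and 7.16 in WT females and 6.62, 6.70, 6.77 and 6.54 in KO females. All KO arrays were below all WT arrays, with a change of -0.35 ± 0.09 (limma, adjusted p 0.00561) that held without each array in turn. Mcm7 had 6.41, 6.22, 6.29 and 6.38 against 5.87, 6.07, 6.11 and 5.99, also apart, with -0.32 ± 0.11 (adjusted p 0.0246). Mcm4 had 7.02, 6.75, 6.93 and 6.93 against 6.60, 6.75, 6.59 and 6.40, where KO array 2 met WT array 2, with -0.32 ± 0.12 (adjusted p 0.0389).

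The calls of Mcm7 and Mcm4 were lost without WT female array 1 or 4 or KO female array 1 or 4, and that of Mcm4 also without WT or KO female array 3. Without WT female array 1 or 4, or KO female array 4, only Ttk and Mcm2 were called. The other subunits had -0.07 for Mcm3, -0.16 for Mcm5 and -0.11 for Mcm6, which did not pass the test. Pcna had 8.46, 8.51, 8.51 and 8.63 in WT and 8.55, 8.59, 8.59 and 8.64 in KO females, overlapping, with a difference of 0.06 on the log2 scale.

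In the same comparison of females other cell types moved. By limma 5 of 7 medulla, 6 of 8 capsule and fibroblast and 5 of 6 adipocyte markers were called lower, against 18.7% of all tested genes. Of the endothelial markers 1 of 7 was called lower. Called higher were 4 of 9 macrophage and 4 of 8 adrenocortical markers, against 13.9%. By direction, every measured medulla, capsule and fibroblast, adipocyte and endothelial marker was below 0, where 52.6% of all genes were above 0. All 9 macrophage markers were above 0, as were 5 of 8 adrenocortical markers. The medulla mean was 9.76 to 10.20 in WT and 9.06 to 9.66 in KO females, and the macrophage mean 7.01 to 7.33 against 7.52 to 8.63, with no overlap in either. Their part in the values of Ttk and the helicase genes was not tested.

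In intact males no gene of the module was called for the knockout by limma, where 0.111% of all tested genes were. The mitotic median was 0.11, with 22 of 29 above 0 against 47.8% of all genes, and the S-phase median was -0.02. The largest mitotic difference was that of Nusap1, which binds spindle microtubules near chromosomes, with 4.98, 5.05, 4.79 and 4.99 in WT and 5.19, 5.07, 5.52 and 5.40 in KO glands. The groups did not overlap, as was so for 2 mitotic genes and for 1.94% of all genes, and the difference was 0.34 ± 0.23 (adjusted p 0.797). The largest S-phase difference was that of Mcm6, with 5.60, 5.26, 5.75 and 5.51 in KO glands inside the range of the WT arrays, at -0.24 ± 0.27 (adjusted p 0.913). Ttk had 4.99, 4.95, 4.65 and 4.94 in WT and 5.03, 5.03, 4.97 and 5.17 in KO glands, overlapping narrowly, at 0.17 ± 0.16 (adjusted p 0.889).

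The knockout effect on Ttk thus differed between females and intact males. WT females were Prkar1afl/+;cre/+ and WT intact males Prkar1afl/fl;+/+. Sex and control genotype therefore cannot be told apart in this interaction or in those given below. The interaction, the effect in females minus that in intact males, was 1.24 ± 0.23 (limma, adjusted p 0.00127) and held without each of the 16 arrays in turn, and Ttk was the single called gene of the module where 16% of all tested genes were called. Without KO intact male array 1, Mcm2 was called too. In the interaction limma called 6 of 7 medulla, 5 of 8 capsule and fibroblast and 3 of 6 adipocyte markers below 0. It also called 2 of 7 endothelial markers below 0, and 1 of 8 adrenocortical and 1 of 9 macrophage markers above 0. Between the KO groups directly, females had more Ttk than intact males by 1.37 ± 0.16 (adjusted p 1.07e-06) and less Mcm2, at -0.39 ± 0.09 (adjusted p 0.00186), and less Mcm7, at -0.29 ± 0.11 (adjusted p 0.0339), where 41% of all tested genes were called. The call of Mcm7 was lost without KO female array 1 or 4 or KO intact male array 2 or 3. Between these KO groups limma called lower in females 7 of 7 medulla, 6 of 7 endothelial and 6 of 8 capsule and fibroblast markers. So were 3 of 6 adipocyte markers, while 4 of 8 adrenocortical and 3 of 9 macrophage markers were called higher. The part of these markers in the values of Ttk and the helicase genes was not tested. Between WT females and WT intact males 0 genes were called, where 7.75% of all tested genes were.

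In order of the group means, Ttk stood at 6.41 ± 0.39 in KO females, 5.70 ± 0.20 in KO GDX males, 5.26 ± 0.27 in WT GDX males, 5.05 ± 0.08 in KO intact males, 5.01 ± 0.22 in WT females and 4.88 ± 0.15 in WT intact males (SD, n = 4). The last 4 of these overlap their neighbours in the order, and KO GDX males overlap WT GDX males. Mki67 had another order, with 7.35 ± 0.31 in WT GDX males and 7.13 ± 0.92 in KO GDX males, where array 2 had 8.49 and the others 6.52 to 6.79, above 6.36 to 6.56 in the 4 other groups.

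Other genes of the cell cycle, in lists of their own, were read beside the module. In females the counts below stand against 13.9% of all tested genes called higher and 18.7% called lower. Among G1 cyclins and their kinases, which take a resting cell toward replication, 3 of 7 fell and 0 rose in KO females. Ccnd2, a D-type cyclin, fell from 10.87 ± 0.10 to 10.17 ± 0.20, by 0.71 ± 0.09 (limma, adjusted p 4.44e-06). Ccnd3 fell by 0.52 ± 0.08 (adjusted p 6.85e-05) and their kinase partner Cdk4 by 0.41 ± 0.06 (adjusted p 3.48e-05). For all 3 the effect in females differed from that in intact males, at -0.58 ± 0.12 for Ccnd2 (adjusted p 0.00435), -0.47 ± 0.12 for Ccnd3 (adjusted p 0.0105) and -0.30 ± 0.09 for Cdk4 (adjusted p 0.0246), the last lost without WT female array 3, KO female array 4 or KO intact male array 3. Cdk4 was called lower by limma in KO than in WT GDX males too, at -0.23 ± 0.06 (adjusted p 0.0388). It was -0.26 ± 0.06 without KO GDX array 2, but 5 of 8 fits without 1 array lost the call. Ccnd2 was called lower after gonadectomy of WT males, at -0.36 ± 0.09 (adjusted p 0.022). In KO males it was -0.30 ± 0.09 (adjusted p 0.0224), or -0.27 ± 0.09 without KO GDX array 2 (adjusted p 0.072). Ccnd3 and Cdk6 were called higher there. Each Ccnd2 call was lost in 4 of 8 such fits.

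Of the CDK inhibitors, which hold cells out of the cycle, 4 of 7 rose (Cdkn1c, Cdkn1a, Cdkn2b and Cdkn2a) and 1 fell (Cdkn2c) in KO females. Cdkn1c, which encodes p57, rose by 0.83 ± 0.24 (limma, adjusted p 0.0109), and Cdkn2c, which encodes p18, fell by 0.58 ± 0.11 (adjusted p 0.000542). Cdkn2c was also called lower in KO than in WT GDX males, at -0.46 ± 0.11 (limma, adjusted p 0.0265). Without KO GDX array 2 it was -0.52 ± 0.12 (adjusted p 0.0202), and the call was lost without WT GDX array 2 or 3 or KO GDX array 4. Cdkn1c also rose after gonadectomy of KO males, from 7.90 ± 0.41 to 9.01 ± 0.44, by 1.11 ± 0.24 (adjusted p 0.00353), or by 0.91 ± 0.24 without KO GDX array 2 (adjusted p 0.017). It was the only one of the 7 called there. After gonadectomy of WT males the only one called was Cdkn1a, which encodes p21 and rose by 0.77 ± 0.21 (adjusted p 0.0403), a call lost without WT intact array 1, 3 or 4 or WT GDX array 2, 3 or 4.

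In the list of other mitotic genes 3 of 14 tested rose (Nek2, Incenp and Espl1) and 0 fell in KO females, and in the list of checkpoint genes 2 of 6 rose (Chek2 and Fzr1) and 0 fell, against 13.9% of all tested genes called higher. Nek2, a centrosome kinase, rose from 5.43 ± 0.11 to 6.22 ± 0.19, by 0.79 ± 0.12 (limma, adjusted p 2.38e-05). Chek2, a kinase of the DNA damage checkpoint, rose from 5.63 ± 0.15 to 6.71 ± 0.40, by 1.08 ± 0.19 (adjusted p 0.000137). As for Ttk, the effect in females differed from that in intact males, by 0.76 ± 0.16 for Nek2 (adjusted p 0.00395) and 1.22 ± 0.26 for Chek2 (adjusted p 0.004). Their calls in females and in the interaction held without each array in turn.

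Among other replication genes 1 of 16 tested rose and 3 fell in KO females, shares near or below the 13.9% and 18.7% of all tested genes. Rrm1, the large subunit of the enzyme that Rrm2 completes, fell by 0.43 ± 0.11 (limma, adjusted p 0.0035), and Pola1, of the polymerase that starts each DNA strand, fell by 0.37 ± 0.09 (adjusted p 0.0023), while Cdc45, a partner of the helicase, rose by 0.39 ± 0.09 (adjusted p 0.00188). Of the E2F, pocket protein and MuvB genes, the regulators of both classes, 2 of 12 tested rose (E2f3 and Lin37) and 1 fell, near or below the same shares. That was Lin9, of the MuvB core, by 0.39 ± 0.10 (adjusted p 0.00474).

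After gonadectomy of WT males, 22 of 24 measured genes of the other mitotic list were above 0, against 46.2% of all genes, with a median of 0.23 and 12 without overlap, against 3.13% of all genes. Of the other replication genes 16 of 18 were above 0, with a median of 0.19. By limma 1 of 14 tested genes of the first list (Ndc80) and 2 of 16 of the second (Pole and Chaf1b) were called higher, against 1.94% of all tested genes. Ndc80, of the kinetochore clamp on microtubules, had 4.28 ± 0.32 in WT intact and 5.14 ± 0.13 in WT GDX males, and Pole, of a replicative polymerase, 4.72 ± 0.15 and 5.14 ± 0.16. Both were over 5 in only 4 arrays and passed the filter only through GDX arrays, so their calls are not independent of it and support nothing here. That of Chaf1b, of the complex that loads histones onto new DNA, was 0.39 ± 0.11 (adjusted p 0.048) and was lost without WT intact array 2, 3 or 4 or WT GDX array 1, 2 or 3. After gonadectomy of KO males 2 of 14 other mitotic genes (Ect2 and Incenp) and 2 of 16 other replication genes (Chaf1b and Cdc45) rose and 0 fell, against 6.85% of all tested genes called higher. The median of the other mitotic list was 0.22 there with KO GDX array 2 and 0.05 without it, and none of these 4 calls held without that array.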

How the data were processed

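RNA of whole adrenal glands was hybridised to Affymetrix mouse gene arrays from 500 ng of total RNA with the WT PLUS kit, per the labels' protocols. The deposited values are log2 signals that the authors made with RMA, per the submitters' processing notes, a method that corrects background, normalizes by quantiles and summarises probes. RMA draws small differences of dim probe sets together, so changes near the background are understated. Of 32202 probe sets, 22943 name 1 gene, 1731 several and 7528 none. Only the first kind was used, and the 828 genes with more than 1 probe set kept the brightest. No source used here names the genome build of the probe set annotation, so no coordinates are given from it. All columns of per-sample values were used.

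All comparisons were contrasts of the 6 group means, fitted once over 24 arrays with limma (version 3.58.1, R 4.3.3), with Benjamini-Hochberg adjustment over 14411 genes and 18 residual degrees of freedom. The labels call the arrays of a group biological replicates. The model was tested on simulated data. Marker and cell cycle lists were fixed by name, and the genes of the module and all lists were chosen with earlier results of these data known. Array values are given for genes called in any of 9 contrasts, the brightest pair of each class, Mki67, Top2a and Cdk1, and the largest knockout difference per class and comparison. Of the other lists, up to 3 called genes per comparison are given with values.

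Replicate numbers are shared between groups. Same-numbered arrays deviated together (every correlation of deviations over 0.1, from 0.12 to 0.243) only for KO against WT GDX males, where a block by number changed no call. For gonadectomy of WT males the correlations were close to these, from 0.0934 to 0.244, and there the block changed calls. Alternatives tried were other filters, normalization, probe set choice, array weights, eBayes settings, fits on the compared groups alone, the block and leaving out each array. The number of arrays limits the precision. Hybridisation batches are not analysed here.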

Additional observations from a re-analysis of the deposited data

Results flagged for a closer look

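In each group of 4 arrays, an array was listed where its distance to the nearest other array took up more of the group's range than Dixon's critical value allows. Of 102 groups of values checked (17 series of values in 6 groups), 9 were listed, and chance gives about 1 in 20. Of the 9, 5 were KO GDX array 2: the mitotic array mean of 6.11 (others 5.16 to 5.25), Mki67 at 8.49 (6.52 to 6.79), Nusap1 at 6.60 (5.10 to 5.31), Rrm2 at 6.48 (5.50 to 5.60) and Top2a at 6.34 (4.74 to 4.91). The other 4 were single genes in different arrays. Ccna2 was 6.32 in WT female array 2 (6.12 to 6.15), and Cdk1 was 4.57 in WT female array 3 (5.19 to 5.29). Mcm4 was 7.47 in WT GDX array 2 (6.90 to 6.97), and Ttk was 4.65 in WT intact male array 3 (4.94 to 4.99).

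The knockout effect differed between females and intact males, by limma's test of the interaction, for Ttk among the genes of the module (1.24 ± 0.23, adjusted p 0.00127). Of the other cell cycle genes it did so for Ccnd2 (-0.58, adjusted p 0.00435), Ccnd3 (-0.47, 0.0105), Cdk4 (-0.30, 0.0246), Nek2 (0.76, 0.00395) and Chek2 (1.22, 0.004). It was also called for Cdkn1c (1.00, limma adjusted p 0.0475) and Fzr1 (0.37, adjusted p 0.0395), each of which was lost in 10 of 16 fits that left out 1 array. WT females and WT intact males also differ in genotype, so sex and control genotype cannot be told apart in any of these interactions.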

How the results depend on the processing

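The number of genes of the module called by limma was recomputed in 9 comparisons under the alternatives listed with the design. No call reversed its direction. After a second quantile normalization 2 genes (Ttk and Mcm2) were called for KO females in place of 4. With arrays weighted, 1 (Mcm6) was called for KO GDX males in place of 0. Fits on the compared groups alone called 5 between KO females and KO intact males in place of 3, and 7 for gonadectomy of WT males in place of 4, of which only Dlgap5 and Prc1 were shared. The 7 include Top2a and Nuf2, whose tests are not independent of the filter. The counts from fits on the compared groups alone stand without the share of all genes called in the same fits. With genes required to be over 6, which left 13 of the module tested, 2 remained for gonadectomy of WT males (Ccna2 and Mcm6). The cause was not tested for the others.

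Leaving out 1 array at a time gave 2 to 4 calls for KO females, 0 to 1 for KO GDX males, 2 to 3 between KO females and males, 0 to 6 for gonadectomy of WT males, 1 to 6 for gonadectomy of KO males and 1 to 2 for the interaction with sex. The mitotic difference for gonadectomy ranged from 0.40 to 0.49 in WT and from 0.08 to 0.40 in KO males. With the replicate number as a block, 4 genes were called for KO females, 3 for gonadectomy of WT males (Anln, Dlgap5 and Mcm6) and 3 for gonadectomy of KO males. The block gave 0 for KO against WT GDX males, the one comparison with every same-number correlation over 0.1.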
